A study of Homo sapiens with 2 samples.

Results

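The genes described here encode proteins that bind TEAD transcription factors: YAP1 and WWTR1 (which encodes TAZ), and the vestigial-like genes VGLL2, VGLL3 and VGLL4. They were examined for sites bound by Flag-tagged YAP-5SA in MCF10A, an epithelial line from human breast that is not transformed. Members were the peaks whose summit fell in 1 window of hg19 per gene. The rule set the windows by position, without reference to peak height, and 9 of the 9393 peaks in the list lay in them. The genes themselves were chosen with earlier results of these data known, and the vestigial-like gene VGLL1 had no window. The study had 1 library of DNA immunoprecipitated with Flag-M2 beads from these cells and 1 library of input DNA, and neither had a replicate. YAP-5SA is a form of YAP in which the serines that LATS kinases phosphorylate are replaced by alanine. There was no sample of cells without the Flag-tagged protein, the files do not say how many clones or cultures were used, and values of the input library were not analysed here. No expression was measured, so the cell type could not be checked against marker genes.

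YAP and TAZ do not bind DNA themselves. They enter the nucleus when the Hippo kinases are inactive and reach DNA through the TEAD proteins, whose usual recognition letters are GGAATG. The vestigial-like proteins contact TEAD through a short Tondu motif and can occupy the same surface as YAP and TAZ. VGLL4 is known as an antagonist that displaces YAP from TEAD, and VGLL2 is best known from skeletal muscle.

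All 5 windows held at least 1 peak. Stretches of the same lengths laid along the list held at least 1 peak in 28.6% to 56.7% of cases. Narrowed by 25 kb on both sides, 3 of the 5 windows did. Because the genes were proposed with the peak list known, these shares test nothing about the genes. The VGLL4 window held 4 peaks, that of WWTR1 held 2, and those of YAP1, VGLL2 and VGLL3 held 1 each. No hg19 annotation was used, so a peak named here for a gene is a peak in its window, which may lie outside the gene. The peaks were of ordinary height for the list. Their heights ran from 20 to 38 with a median of 24, the same as the median of all 9393 peaks, and 3 of the 4 peaks taller than that median belonged to VGLL4. Height is the score that the deposited list gives at each summit. Its unit is not stated, so it is used here only to rank peaks within the list. With 1 library there is no replicate check and no test, and the read depth is unknown.

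**Figure D1:**
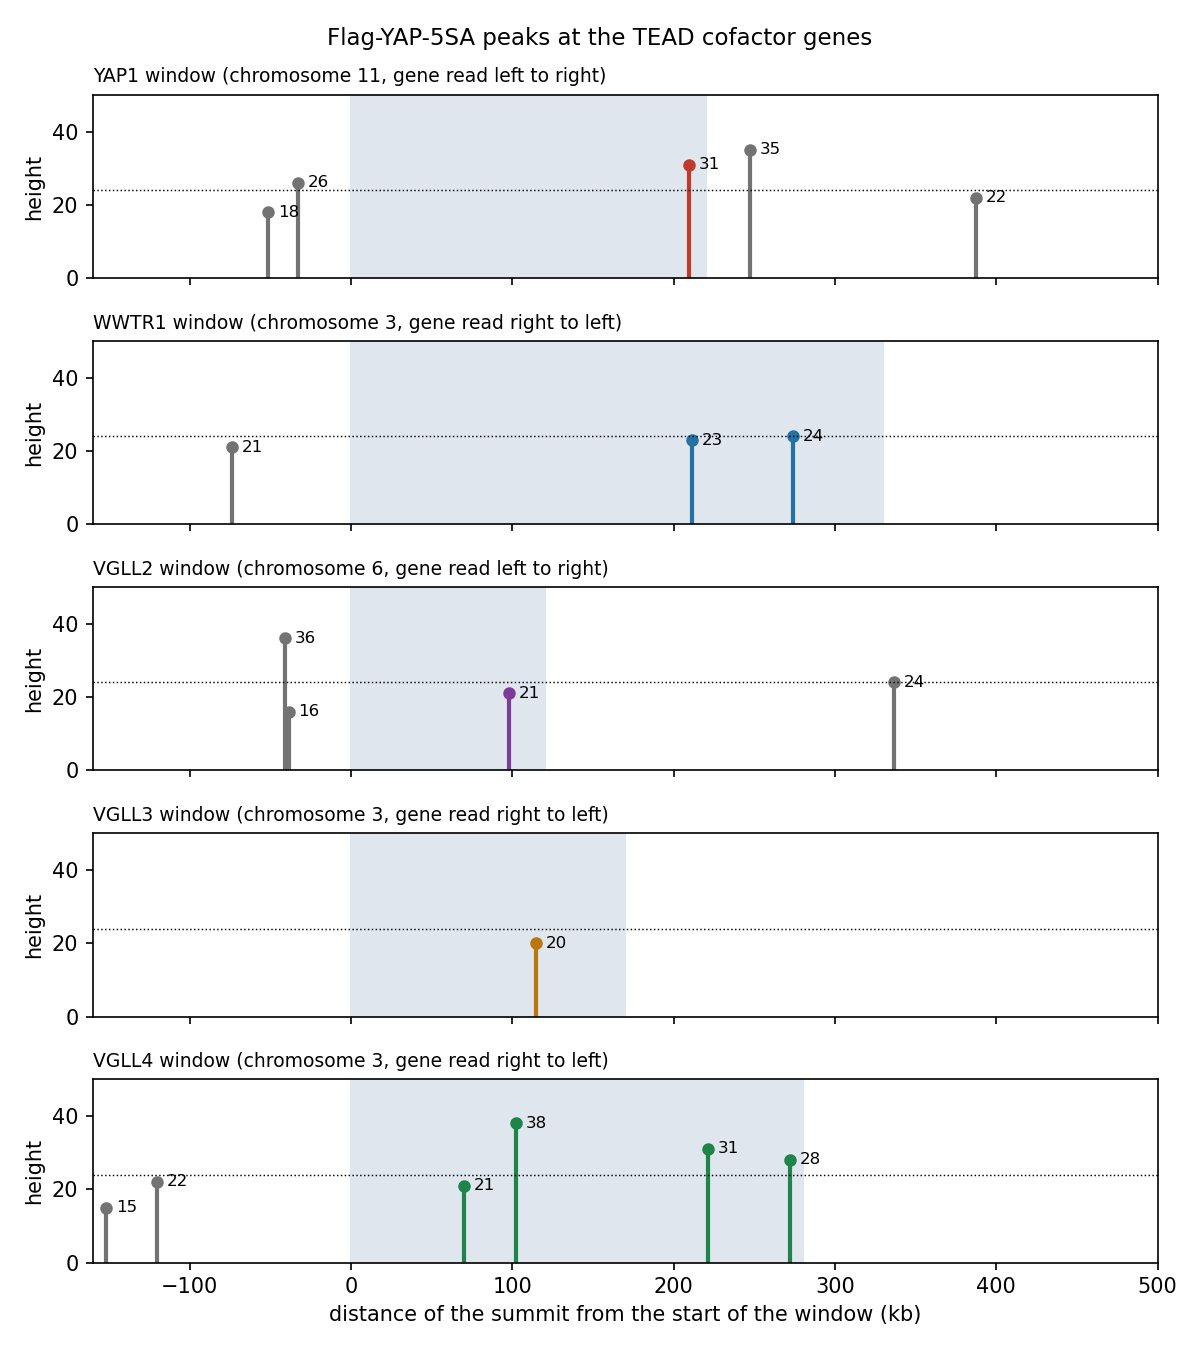
Summit position, as distance in kb from the start of each gene's window, against peak height (deposited score) for the Flag-YAP-5SA library. Shading marks the window, coloured points the 9 peaks inside, grey points those of the 2 nearest peaks on each side that fall within the axis, and the dotted line the list's median height of 24. VGLL4 has 4 peaks spread over its window, while the single YAP1 peak stands 10.6 kb from the window's right edge with a taller neighbour just outside.

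The YAP1 promoter is shown first, because YAP1 was the only 1 of the 5 genes with the TEAD letters in a RefSeq promoter. The 250 bases before the RefSeq start of YAP1 (GRCh38.p14, chromosome 11, plus strand) are given 5′ to 3′, with GGAATG in capitals.

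YAP1: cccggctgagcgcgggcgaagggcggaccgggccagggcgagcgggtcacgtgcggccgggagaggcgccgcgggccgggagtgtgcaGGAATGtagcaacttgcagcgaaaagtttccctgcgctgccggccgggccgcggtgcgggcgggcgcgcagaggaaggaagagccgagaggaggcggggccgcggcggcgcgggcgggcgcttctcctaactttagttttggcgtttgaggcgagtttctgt

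The match lay from 162 to 157 bases before the start, on the strand of the gene, and was followed by a T. The RefSeq table held 10 promoters for the 5 genes, namely 1 each for YAP1, VGLL2 and VGLL3, 2 for WWTR1 and 5 for VGLL4. Each covers 250 bases before a start and 50 after it. GGAATG was sought on both strands, and it was found in 1 of these 10 promoters, against 14% of the 35116 RefSeq promoters of the same length. By gene it was 1 of 5, against 16.7% of the 27305 genes in the table. The AP-1 letters TGANTCA were in 0 of the 10, against 7.71% of all. GC content was 70.7% in the YAP1 promoter, 69% in that of VGLL2 and 68% in that of VGLL3. It was 37% and 63% in the WWTR1 promoters and from 41% to 62.7% in those of VGLL4. A match of letters describes the sequence only, and GRCh38 positions were not carried over to the hg19 peaks.

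Other genes of the pathway differed among themselves in the same respect. Of 13 listed, 10 had a promoter in the table, with 14 promoters between them, and 5 of these promoters from 5 genes held GGAATG. Over the whole table it was in 14% of promoters and in at least 1 promoter of 16.7% of genes. The list was chosen with known YAP targets in it, so its share is a description. CCN2, a matricellular gene widely used as a YAP target, had 3 matches in its promoter. ANKRD1, another common YAP target, had 2, with 1 TGANTCA match. AMOTL2, which encodes an angiomotin that retains YAP outside the nucleus, had 1 match in 1 of its 2 promoters. The kinase gene LATS2 and the vestigial-like gene VGLL1 had 1 match each. None was found for TEAD2, TEAD3, LATS1, NF2 or WWC1, although a LATS1 promoter held 1 TGANTCA. TEAD1, TEAD4 and CCN1 had no entry.

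YAP1 (gene ID 10413), the gene of the immunoprecipitated protein itself, had 1 peak in its window. Its window ran from 101.93 to 102.15 Mb of chromosome 11, a length of 220 kb. The peak lay at chr11:102139088-102139747, was 660 bp wide and had its summit at 102139360. Its height of 31 was exceeded by 20.8% of the list, or 1958 peaks. YAP1 is read toward higher positions, and the summit stood 95.2% of the way along the window in that direction, 209.4 kb from the window's start and 10.6 kb from its end. The first 209.4 kb of the window, the side on which YAP1 starts, held no peak. The peak-free stretch in fact ran 242.2 kb back to a peak outside the window, at chr11:101896759-101897496, with a height of 26, a width of 738 bp and its summit at 101897152. Such a stretch was not unusual, since 35.7% of the gaps between neighbouring summits in the list were longer. The median gap was 137.1 kb.

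The nearest peak to that of YAP1 lay just outside the window, at chr11:102176745-102177410, and was 666 bp wide. Its summit was 37.9 kb further on, at 102177216, or 27.2 kb past the window's end, and its height of 35 was greater than the 31 of the YAP1 peak. In RefSeq the next protein-coding gene on this side is BIRC3, which encodes an inhibitor of apoptosis, and the one before YAP1 is CFAP300. No hg19 annotation was used, so whether the peak lies in the last part of YAP1 or between YAP1 and BIRC3 is not given here.

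WWTR1 (gene ID 25937) encodes TAZ, the paralogue of YAP. Its window, from 149.18 to 149.51 Mb of chromosome 3, was the longest at 330 kb and held 2 peaks of nearly equal height. The first lay at chr3:149391047-149391592, with a height of 23, a width of 546 bp and a summit at 149391328. The second lay at chr3:149453944-149454475, with a height of 24, a width of 532 bp and a summit at 149454144. The pair was 62.8 kb apart, and both were narrower than the list's median width of 611 bp. WWTR1 is read toward lower positions, so the summits stood 36% and 16.9% of the way along the window from its upstream edge. The downstream 211.3 kb of the window held no peak. Outside the window the nearest peak on the downstream side lay at chr3:149105724-149106284, its summit 74 kb from the window, with a height of 21 and a width of 561 bp. The nearest on the upstream side, at chr3:149966145-149966666, was 456.4 kb from the window, with a height of 30 and a width of 522 bp. COMMD2 is the next protein-coding gene on the upstream side and TM4SF4 on the downstream side.

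VGLL4 (gene ID 9686) had the most peaks and the tallest. Its window ran from 11.54 to 11.82 Mb of chromosome 3, a length of 280 kb, and VGLL4 is also read toward lower positions. From the upstream edge, the first peak lay at chr3:11811830-11812455, with its summit 7.87 kb inside the window, a height of 28 and a width of 626 bp. The second lay 51 kb further on at chr3:11760768-11761495, with a height of 31 and a width of 728 bp. The third, a further 119 kb on, lay at chr3:11641723-11642565 and was both the tallest and the widest of the 9, with a height of 38 and a width of 843 bp. The last lay 32.4 kb beyond it at chr3:11609619-11610008. With a height of 21 and a width of 390 bp, it was the narrowest of the 9.

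These 4 peaks thus spanned most of the range found among all 9. The height of 38 equalled the 90th percentile of the list, with 901 peaks (9.59%) taller, and was the only 1 of the 9 to reach it, against 10.6% of the list at or above it. The peak of height 31 was exceeded by 20.8% of the list, that of 28 by 30% and that of 21 by 61.7%. The width of 390 bp was undercut by 3.58% of the list, whereas that of 843 bp was exceeded by 11.2%. The third and last of these peaks were the closest pair among the 9. Outside, the nearest peak on the downstream side lay at chr3:11419095-11419662, its summit 120.6 kb from the window, with a height of 22 and a width of 568 bp. The nearest on the upstream side lay at chr3:12266104-12266617, 446.4 kb from the window, with a width of 514 bp and a height of 49, taller than any peak in the 5 windows. The neighbouring protein-coding genes are TAMM41 upstream and ATG7 downstream, and the summit 7.87 kb inside the upstream edge is the one nearest to the TAMM41 side.

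VGLL3 (gene ID 389136) had 1 peak, the lowest of the 9. Its window covered 86.93 to 87.10 Mb of chromosome 3, a length of 170 kb. The peak lay at chr3:87044767-87045240, with a summit at 87044928, a height of 20 and a width of 474 bp. In height 67.2% of the list exceeded it, and in width 85.9%. VGLL3 is read toward lower positions and the summit stood 32.4% of the way along the window from its upstream edge. This was the most isolated of the 9 peaks. The next summit upstream was 441.6 kb away, in a peak at chr3:87486175-87486676 with a height of 18 and a width of 502 bp. In the downstream direction none followed for 2118 kb, a gap that 1.37% of the list's gaps exceeded. The peak at its far end, chr3:84926183-84926589, had a height of 24 and a width of 407 bp. The neighbouring protein-coding genes are CHMP2B and CADM2. Whether reads could be mapped throughout that stretch was not examined.

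VGLL2 (gene ID 245806) had the shortest window, 120 kb from 117.53 to 117.65 Mb of chromosome 6, and 1 peak. It lay at chr6:117627489-117627956, with a summit at 117627712, a height of 21 and a width of 468 bp. In height 61.7% of the list exceeded it. VGLL2 is read toward higher positions, and the summit stood 81.4% of the way along, 22.3 kb from the end of the window. The next protein-coding gene in that direction is ROS1, which encodes a receptor tyrosine kinase, and which of these genes the peak overlaps is not given here. On the other side, a close pair of peaks lay just outside the window. Their summits, at 117491296 and 117489312, were 38.7 and 40.7 kb before its start and 1984 bp apart. The nearer, at chr6:117490298-117491500, had a height of 16 and a width of 1203 bp. The other, at chr6:117488896-117489745, had a height of 36 and a width of 850 bp. Both were wider than any peak inside the windows. The gene on that side is RFX6. Past the other edge, on the ROS1 side, the nearest peak lay at chr6:117866171-117866823, its summit 216.5 kb from the window, with a height of 24 and a width of 653 bp.

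**Figure D2:**
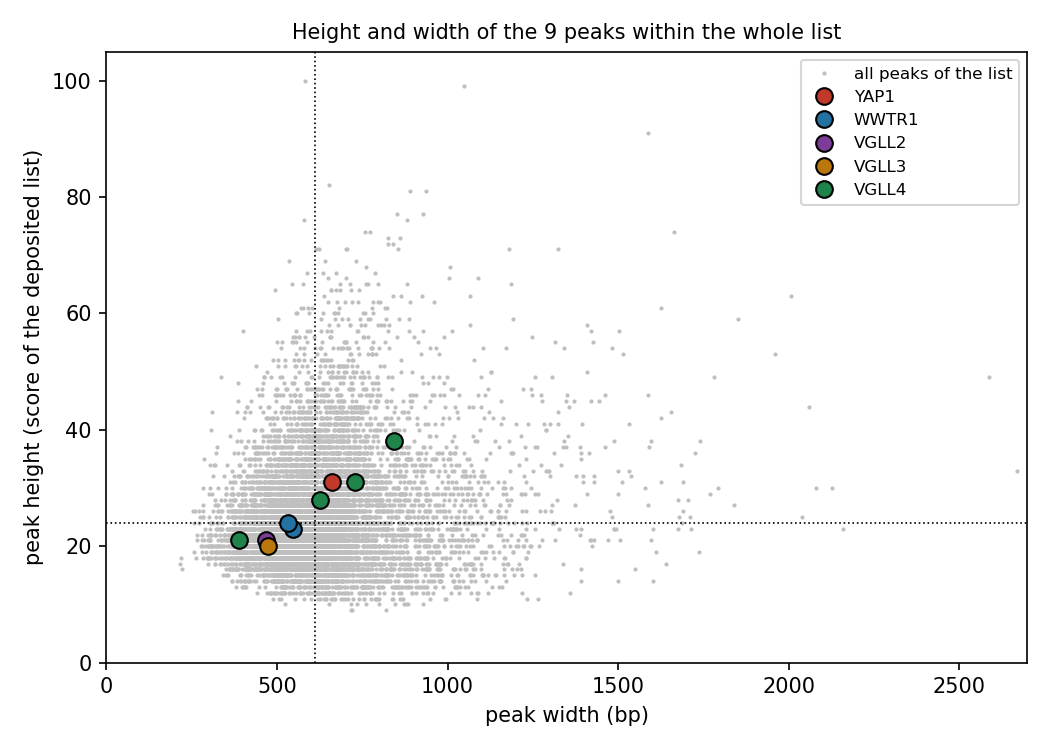
Peak height (deposited score) against peak width in bp for all 9393 peaks (grey) and for the 9 peaks at the cofactor genes (coloured by gene). Dotted lines mark the list's medians, 24 and 611 bp: the YAP1 peak and 3 VGLL4 peaks lie above both medians, and the other 5 lie below the median width at heights of 20 to 24.

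Among the 9 peaks the taller ones were also the wider ones, a split noticed after the values were seen. Of the 9, 4 were taller than 24, 1 was at 24 and 4 were lower, against 45.5% of the list taller than 24. The same 4 peaks were also the ones wider than 611 bp, namely the YAP1 peak and 3 of VGLL4. In the list, 57.9% of the peaks taller than the median were wider than 611 bp, and 43.3% of the rest. The 9 heights had a mean of 26.3 ± 6.08 (SD over 9 peaks), and those of the list 25.8 ± 9.60 (SD over 9393 peaks). No test of this difference was made. Peaks outside VGLL4 ranged from 20 to 31 in height and those of VGLL4 from 21 to 38, so the ranges overlapped. For the genes other than VGLL4 these values rest on 1 or 2 peaks each. The median height was 24 on chromosome 11 and 23 on chromosomes 3 and 6.

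The 5 windows together measured 1.12 Mb and had 8.04 peaks per Mb (exact Poisson interval at the 95% level 3.67 to 15.3), against 3.45 per Mb over the list, a ratio of 2.33. The interval covers counting error only, and it treats peaks as independent of one another. The genes were proposed with the peak list known, so the intervals given here test no window against the list. VGLL4 had 14.3 peaks per Mb (3.89 to 36.6). Without VGLL4 the other windows had 5.95 per Mb. Taken singly, the density was 4.55 per Mb (0.12 to 25.3) for YAP1 and 6.06 (0.73 to 21.9) for WWTR1. It was 8.33 (0.21 to 46.4) for VGLL2 and 5.88 (0.15 to 32.8) for VGLL3. The YAP1, VGLL2 and VGLL3 windows are so short that 1 peak is enough to exceed the 3.45 per Mb of the list. Chromosome 3, which holds 3 of the windows and 7 of the 9 peaks, had 3.32 peaks per Mb. Chromosomes 11 and 6 had 3.51 and 3.33. DNA copy number was not corrected for.

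Windows of these lengths often held a peak anywhere in the list. When the span of each chromosome was laid out in consecutive tiles as long as a window, at least 1 summit was found in 44.1% of tiles at the length of the YAP1 window, 56.7% at that of WWTR1, 28.6% at that of VGLL2, 36.9% at that of VGLL3 and 50.9% at that of VGLL4. The 4 peaks of VGLL4 lay above the 90th percentile of such tiles, which was 3, and above their median of 1. The counts of the other 4 genes were at or below the 90th percentile, which was 2 for the YAP1 and VGLL3 lengths, 3 for WWTR1 and 1 for VGLL2. The genes were proposed with the peak list known, and gene density was not matched, so these shares describe the list and test nothing about the genes.

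**Figure D3:**
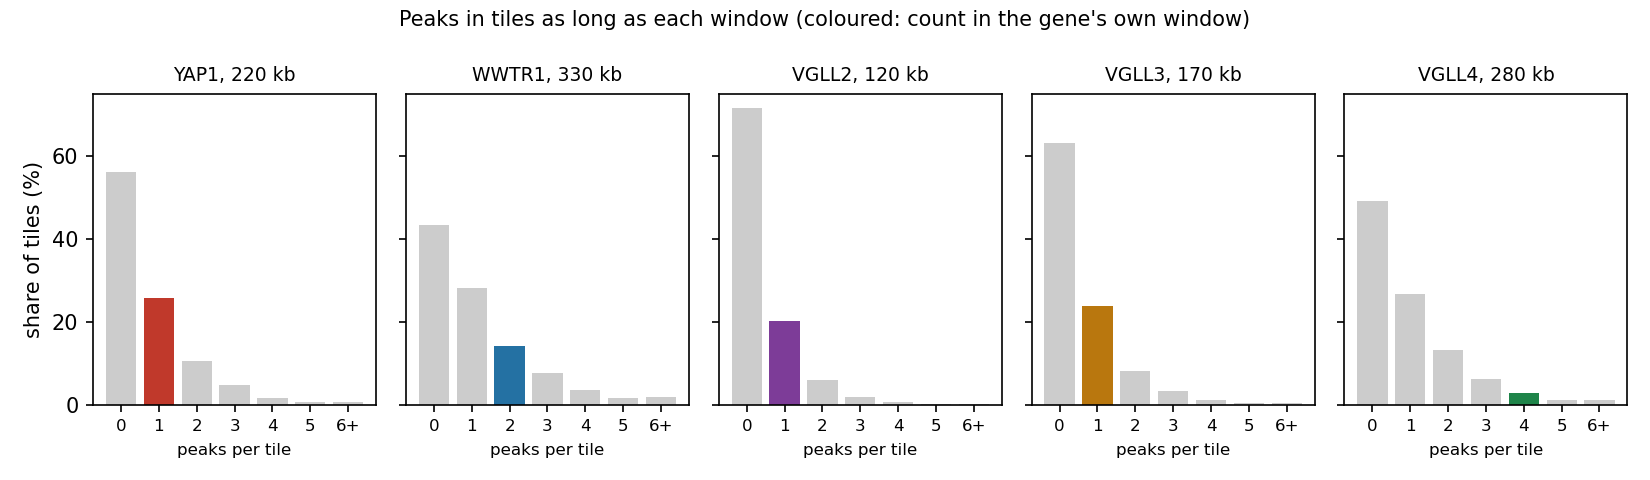
Share of consecutive tiles (%) by the number of peaks they hold, for tiles as long as each gene's window (220, 330, 120, 170 and 280 kb), with 6 or more peaks pooled. The coloured bar marks the number found in the gene's own window: 4 peaks for VGLL4 lie above the 90th percentile of 3, and 1 or 2 for the other genes do not lie above theirs.

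None of the 9 peaks belonged to a close group. The distance to the nearest summit ran from 32.4 kb for the third and last VGLL4 peaks to 441.6 kb for VGLL3, with a median of 51 kb, against 55.8 kb over the list. With neighbouring intervals joined up to a distance of 25 kb, 0 of the 9 fell in a group, as against 33.9% of the list. At 5 kb it was also 0 of the 9, against 13.7% of the list, and at the main distance, which lies between these, 0 of the 9 against 23.1%. The 4 peaks of VGLL4 were thus separate intervals spread over its window. All 9 summits stood on multiples of 32 bp, as did 80.4% of the list. The summits were between 9 and 75 bp from the middle of their intervals.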

How the data were processed

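One library of Flag-YAP-5SA chromatin and 1 of input DNA were described, and the peak list of the former was analysed. BWA 0.6.1 and MACS, with the build hg19, appear in the submitters' processing notes. Which MACS version and threshold were used, whether duplicates were removed and whether the input served as control is not stated there. The deposited file has, per its headers, a summit track, with a score per summit (the height), and an interval track; they were joined by order. The score is the authors' and its scaling is not stated. Interval positions are 1-based, and summits are printed as listed.

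Windows were taken from the rule for the 5 genes. The members and the lists of genes and motifs were chosen with earlier results of these data known. Every peak in a window is described, with the tallest, the nearest outside each edge and pairs under 2 kb apart in full. Chromosome length for densities was the distance between the first and last summit less the longest peak-free stretch, and tiles touching that stretch were left out. Promoters, strand and gene order came from RefSeq (GRCh38.p14). All 5 genes matched. Only names and order were used from its gene table. The tile counter and motif search were tested on simulated data. With 1 library no test was run. Sequencing depth is unknown. Motifs under peaks, peaks at the other pathway genes and protein features were not analysed here, since no hg19 genome, hg19 annotation or protein table was used. Software was pandas 2.3.3, scipy 1.17.1, numpy 2.4.6 and matplotlib 3.10.9 under Python 3.11.15.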

Additional observations from a re-analysis of the deposited data

How the results depend on the processing

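Narrowed by 25 kb on both sides, the windows held 6 peaks and 3 of the 5 had at least 1, because the single peaks of YAP1 and VGLL2 and 1 of VGLL4 lay near an edge. Widened by 50 kb, they held 13, with 3 each for YAP1 and VGLL2 and no change for the others. Restricted to peaks taller than the median, 4 peaks in 2 windows were left (YAP1 with 1, VGLL4 with 3). A lower number of peaks follows by construction, but a peak in all 5 windows did not hold, since WWTR1, VGLL2 and VGLL3 had 0. Counting by any overlap of the interval, or joining intervals under 200 bp apart, left the 9 peaks and each gene's number as they were. The density ratio to the list was 2.49 with the full span of the chromosomes and 2.39 against the same chromosome, compared with 2.33. Tiles with a shifted start held a peak in 44.3% of cases at the YAP1 length, 56.0% at that of WWTR1, 28.8% at that of VGLL2, 37.0% at that of VGLL3 and 51.3% at that of VGLL4. Joining at 5 or 25 kb put 0 of the 9 in a group, as the main distance between them did. With GGAATGT or GGAATGC as the TEAD letters, 1 of the 10 promoters matched, that of YAP1, against 6.64% of all RefSeq promoters. Motifs under the peaks were not run. No replicate could be left out, since there is 1 library, and no paired analysis was possible because there are no replicates. The single library and the unknown read depth limit every value.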
